A study of Mus musculus with 5 samples.

Results

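Mitochondrial ribosomal protein genes were measured in the liver of 5 male wild-type C57BL/6N mice aged 5 to 6 months, all given streptozotocin and then bezafibrate. They were taken as the genes whose symbol begins with Mrpl or Mrps followed by a digit and that had a probe set annotated with exactly 1 symbol, and the brightest probe set stands for each gene. This gave 77 genes out of 19938 named genes on the array. Streptozotocin, a toxin of pancreatic beta cells, was injected at 65 mg/kg on 5 days at an age of 10 to 16 weeks. Bezafibrate, a fibrate drug that activates PPAR receptors, was mixed into the chow for 8 weeks, starting 2 weeks later, at 0.25% or 0.5% by weight, and the labels do not say which mouse received which. Mice without either compound were not analysed here, so the values describe the level of these genes in doubly treated livers and the spread between 5 such mice, and no effect of treatment. The mice are called by the numbers in their titles, 1 to 5, which carry no order.

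The mitochondrial ribosome translates the few proteins encoded by mitochondrial DNA, all of them subunits of the respiratory chain and ATP synthase. Its RNAs come from mitochondrial DNA, whereas all of its proteins are made from nuclear genes in the cytosol and imported. Part of these proteins descend from the bacterial ancestor of the organelle and others are found in mitochondria alone. The liver is rich in mitochondria, and fibrates act there on genes of fatty acid oxidation.

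By the structural nomenclature of the mammalian mitoribosome, 26 of the 77 genes encode proteins of the small subunit, which reads the messenger RNA, and 50 encode proteins of the large subunit, which joins the amino acids. In this nomenclature 46 of them are named after a bacterial counterpart and 30 as specific to mitochondria. Mrps18a and Mrps18b are counted among the 30 by their names, although both are homologs of the bacterial ribosomal protein S18. Despite their symbols, Mrps30 (mL65) and Mrps18a (mL66) lie in the large subunit, and Mrps36 is a component of the oxoglutarate dehydrogenase complex and belongs to neither subunit. Mrpl53 shared its only probe set with Ccdc142 and was not analysed here. The 77 genes are spread over 17 chromosomes, with 11 on chromosome 11.

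A few of the promoters are shown, for genes with a wide spread between mice, for a pair of members that share a start region and for an example of NRF1 core matches. The windows hold 250 bases before and 50 after a gene start and come from RefSeq on build GRCm38.p6, read 5′ to 3′ on the strand of the gene. Capitals mark matches, on either strand, to TGCGCATGC (the core of the NRF1 motif), CCGGAAG (the ETS motif, which GABPA binds) or AAGATGGCG (the YY1 motif). NRF1, GABPA and YY1 are transcription factors of many nuclear genes for mitochondrial proteins. The first is that of Mrps12 (chr7:28741772-28742071, minus strand), the gene with the widest spread, followed by Mrpl22 (chr11:58171414-58171713, plus strand), the second widest, and Mrps18b (chr17:35916391-35916690, minus strand), the example with 2 NRF1 core matches and an ETS match.
Mrps12: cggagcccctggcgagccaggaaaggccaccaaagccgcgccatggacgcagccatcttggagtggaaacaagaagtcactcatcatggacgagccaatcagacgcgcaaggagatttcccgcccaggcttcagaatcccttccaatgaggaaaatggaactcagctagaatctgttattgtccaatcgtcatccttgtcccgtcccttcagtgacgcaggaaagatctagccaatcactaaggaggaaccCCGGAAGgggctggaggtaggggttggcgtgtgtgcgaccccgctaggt
Mrpl22: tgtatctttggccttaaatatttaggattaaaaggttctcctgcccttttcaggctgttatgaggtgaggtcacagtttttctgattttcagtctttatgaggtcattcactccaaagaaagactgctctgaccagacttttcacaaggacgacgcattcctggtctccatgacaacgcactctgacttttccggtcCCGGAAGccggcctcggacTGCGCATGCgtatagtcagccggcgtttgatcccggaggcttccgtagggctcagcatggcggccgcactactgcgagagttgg
Mrps18b: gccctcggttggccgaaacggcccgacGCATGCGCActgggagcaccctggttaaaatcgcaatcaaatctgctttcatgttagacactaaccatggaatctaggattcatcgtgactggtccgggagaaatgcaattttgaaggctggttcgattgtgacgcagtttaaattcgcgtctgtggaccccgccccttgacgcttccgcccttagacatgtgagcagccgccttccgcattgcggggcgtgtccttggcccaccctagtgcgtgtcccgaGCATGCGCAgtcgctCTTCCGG
Mrps11 and Mrpl46 are both members and start back to back, so that their windows at chr7:78782881-78783180 (plus strand) and chr7:78783040-78783339 (minus strand) overlap.
Mrps11: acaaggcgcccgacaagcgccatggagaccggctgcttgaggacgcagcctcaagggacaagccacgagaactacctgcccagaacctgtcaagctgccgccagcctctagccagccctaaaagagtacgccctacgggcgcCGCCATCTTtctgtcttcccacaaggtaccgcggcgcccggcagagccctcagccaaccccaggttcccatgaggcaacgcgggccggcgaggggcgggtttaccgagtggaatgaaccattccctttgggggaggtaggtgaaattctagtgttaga
Mrpl46: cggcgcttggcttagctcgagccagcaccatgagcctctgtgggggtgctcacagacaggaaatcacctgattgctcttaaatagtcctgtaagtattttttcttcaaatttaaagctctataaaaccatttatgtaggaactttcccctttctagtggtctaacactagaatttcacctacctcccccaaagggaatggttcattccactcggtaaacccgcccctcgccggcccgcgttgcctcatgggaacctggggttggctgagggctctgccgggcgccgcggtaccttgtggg
The window of Mrps11 holds a YY1 match and that of Mrpl46 holds none of the 3 motifs.

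Of the 77 genes, 68 had at least 1 window in the promoter table. The ETS motif was found in 25 of these 68 (36.8%), in contrast to 12.9% of 17492 protein-coding genes in the table. The YY1 motif was found in 8 (11.8%), with 2.14% among all protein-coding genes, and the NRF1 core in 6 (8.82%), with 2.23% among all. The NRF1 core can overlap its own reverse complement, and a gene with several windows counts as holding a motif if any window does. Genes expressed in these livers are a closer comparison, and among 10263 tested protein-coding genes outside the family the shares were 17.7%, 3.12% and 3.03% for ETS, YY1 and NRF1. The NRF1 core was found in Mrpl9, Mrpl10, Mrpl17, Mrpl22, Mrpl32 and Mrps18b, and the YY1 motif in Mrpl35, Mrpl36, Mrpl37, Mrpl42, Mrps11, Mrps18a, Mrps24 and Mrps27. Matches are strings of letters and do not show that a factor binds.

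A start on the opposite strand within 1000 bases upstream was found for 24 of the 68 genes (35.3%), in contrast to 11.6% of the tested protein-coding genes outside the family and 8.48% of all protein-coding genes. Some of the partners also act in mitochondria. Mrps12 faces Sars2, the mitochondrial seryl-tRNA synthetase, Mrpl43 faces Twnk, the helicase of mitochondrial DNA, and Mrpl47 faces Ndufb5, a subunit of respiratory complex I. Mrpl49 faces Fau, which encodes a fusion of a ubiquitin-like protein and a cytosolic ribosomal protein. Both genes were tested in 21 distinct pairs. In 6 of the 21 pairs both genes were highest in the same mouse, and in 4 both were lowest in the same mouse. These counts were not tested, and over all tested genes the mice are not equally often at the extremes, with mouse 2 the highest for 25.5% and mouse 4 the lowest for 36.6%. Mrps12 had log2 signals of 7.13, 6.95, 7.15, 6.57 and 6.88 in mice 1 to 5, and Sars2 had 8.03, 7.98, 7.73, 7.81 and 7.85. Mouse 3 was thus the highest for Mrps12 and the lowest for Sars2. For the pair in which both are members, Mrps11 had 8.60, 8.56, 8.68, 8.36 and 8.64 in mice 1 to 5 and Mrpl46 had 8.63, 8.74, 8.58, 8.34 and 8.55. Both were lowest in mouse 4.

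All 77 genes were detected in all 5 livers. Genes of odorant and pheromone receptors (1205 probe sets) were taken as the background, and whether each of them is silent in these livers was not checked. Their 95th percentile on each array, the brightness floor, lay between 5.59 and 6.07. The values of the family lay between 6.57 (Mrps12 in mouse 4) and 11.03 (Mrps18b in mouse 2), all above it. This range spans different probe sets, whose brightness also depends on their probes, and it does not order the genes by transcript abundance. By comparison, 11955 of the 19938 named genes exceeded the floor on all arrays. All of these are among the 13329 tested genes, which had been selected by a mean signal above a floor of the same kind. Hepatocyte markers, 10 of 10, exceeded the floor on all arrays. Of 8 lymphocyte and neutrophil markers, 5 (Cd3g, Cd79a, Ly6g, Ms4a1 and S100a8) lay below it on every array and 2 (Cd3e and S100a9) above it on every array. Of 6 skeletal muscle markers, 3 (Actn3, Myh4 and Mylpf) lay below it on every array and 3 (Acta1, Ckm and Tnnt3) above it. Of 4 adipocyte markers, Adipoq and Lep lay below it on every array, Plin1 lay above it on all 5 and Retn on 4.

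The genes differed little between the livers. The median gene spanned 1.2-fold between its lowest and its highest mouse, 37 of the 77 spanned less than 1.2-fold, and 4 (Mrpl22, Mrps12, Mrps30 and Mrps35) more than 1.4-fold. No treatment contrast exists, so the test for single genes asked whether a gene varied between the 5 mice more than genes of its level do. It was an upper-tail F test on the variance expected at that level by limma. None of the 77 genes was called at an adjusted p of 0.05, with 52 of 14579 tested probe sets (0.357%) called in all. At an unadjusted p under 0.05 the count was 0 of the 77 genes and 925 of the 14579 probe sets (6.34%). The lowest p of the family was 0.0958 for Mrps12 (limma adjusted p = 0.957).

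Their spread was close to that of other genes. The SD between mice had a median of 0.111 for the mitoribosomal genes and of 0.117 for all tested genes, and it was 0.112 for 2306 other tested genes whose level lay between the quartiles of the family. In 42 of the 77 genes (54.5%) the variance was below the one expected at the level, and over all tested genes that share was 53.0%. Mrps12 reached 3.20 times the expected variance, the largest ratio of the family, and Mrps36, with the smallest, 0.119 times. With 5 mice the test reaches only large differences. In simulated data with the same levels, it recovered 2 of 100 probe sets whose SD had been raised 3-fold and 32 of 100 with a 6-fold SD.

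**Figure D1:**
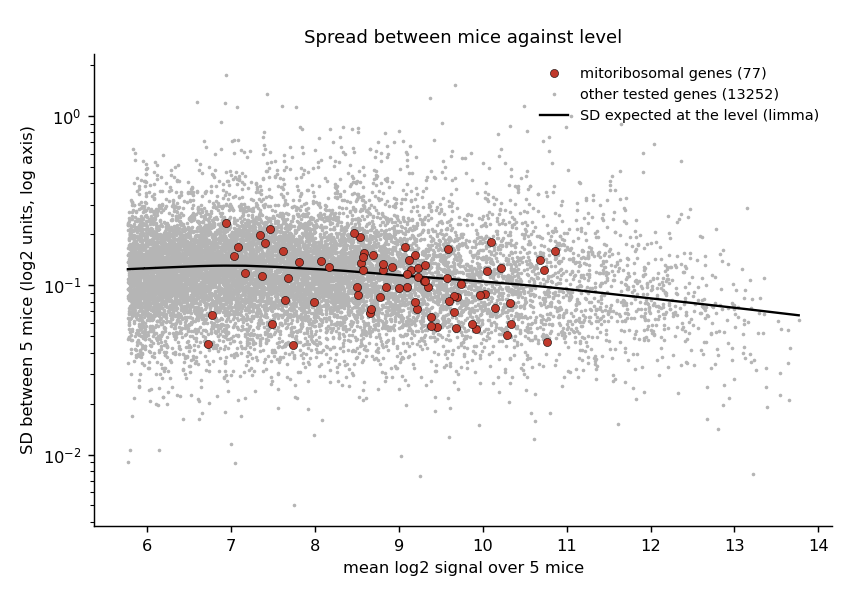
Each point is a gene, with the mean log2 signal of the 5 mice on the horizontal axis and the SD between the mice on a logarithmic vertical axis. The 77 mitoribosomal genes lie around the black line of the SD that limma expects at the level, within the cloud of the 13252 other tested genes, and 42 of them have a variance below it.

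The widest genes encode proteins from several sites of the ribosome. Mrps12 (uS12m), whose bacterial homolog lies at the decoding centre, had a mean of 6.94 ± 0.23 (SD, n = 5). Its value in mouse 4 was 6.57 and those of the other mice were 6.88 to 7.15, and without mouse 4 the SD was 0.13. Mrpl22 (uL22m) and Mrpl4 (uL4m) line the tunnel through which the new protein leaves the large subunit. Mrpl22 had 7.44, 7.69, 7.63, 7.13 and 7.45 in mice 1 to 5 (SD 0.22, and 0.13 without mouse 4), and Mrpl4 had 9.19, 9.06, 9.16, 8.78 and 9.16 (SD 0.17, and 0.054 without mouse 4). Both were lowest in mouse 4, and the other 4 mice differed by little for Mrpl4.

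Mouse 4 was also the lowest for other wide genes of the large subunit. Mrpl34 (bL34m) had 10.29, 10.26, 10.08, 9.84 and 10.04 in mice 1 to 5, with an SD of 0.18, and 0.12 without mouse 4. Mrps30 (mL65) had 7.45, 7.60, 7.34, 7.07 and 7.26, with an SD of 0.20, and 0.14 without mouse 4. Mrpl21 (bL21m) had 7.49, 7.61, 7.46, 7.17 and 7.25 (SD 0.18). Mrpl45 (mL45), which tethers the ribosome to the inner membrane beside the tunnel exit, ran otherwise. It was highest in mouse 4, with 8.30, 8.68, 8.39, 8.76 and 8.54 in mice 1 to 5 (SD 0.19).

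Mrps35 and Mrps25 were each set apart by another mouse. Mrps35 (mS35), of the small subunit, was 8.13 in mouse 5, with the other mice at 8.48 to 8.68, and its SD of 0.20 was 0.091 without mouse 5. Mrps25 (mS25), also of the small subunit, was 7.37 in mouse 2, with the other mice at 6.95 to 7.06, and its SD of 0.17 was 0.048 without mouse 2. Mrpl14 (uL14m), at the face where the subunits meet, had 9.53, 9.72, 9.79, 9.52 and 9.39 in mice 1 to 5 (SD 0.16). No single mouse set it apart, and its SD was 0.13 to 0.18 with any 1 mouse left out.

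The steadiest genes spanned 1.08-fold to 1.10-fold. Mrpl42 (mL42) had a mean of 7.73 ± 0.045 (SD, n = 5), Mrpl40 (mL40) of 10.77 ± 0.046, Mrpl15 (uL15m) of 10.28 ± 0.051 and Mrpl49 (mL49) of 9.92 ± 0.055, which was 0.026 without mouse 1. Mrps36, which is no ribosomal protein, was as steady, with 6.71, 6.69, 6.74, 6.69 and 6.79 in mice 1 to 5 (SD 0.045). All of these except Mrps36 belong to the large subunit.

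**Figure D2:**
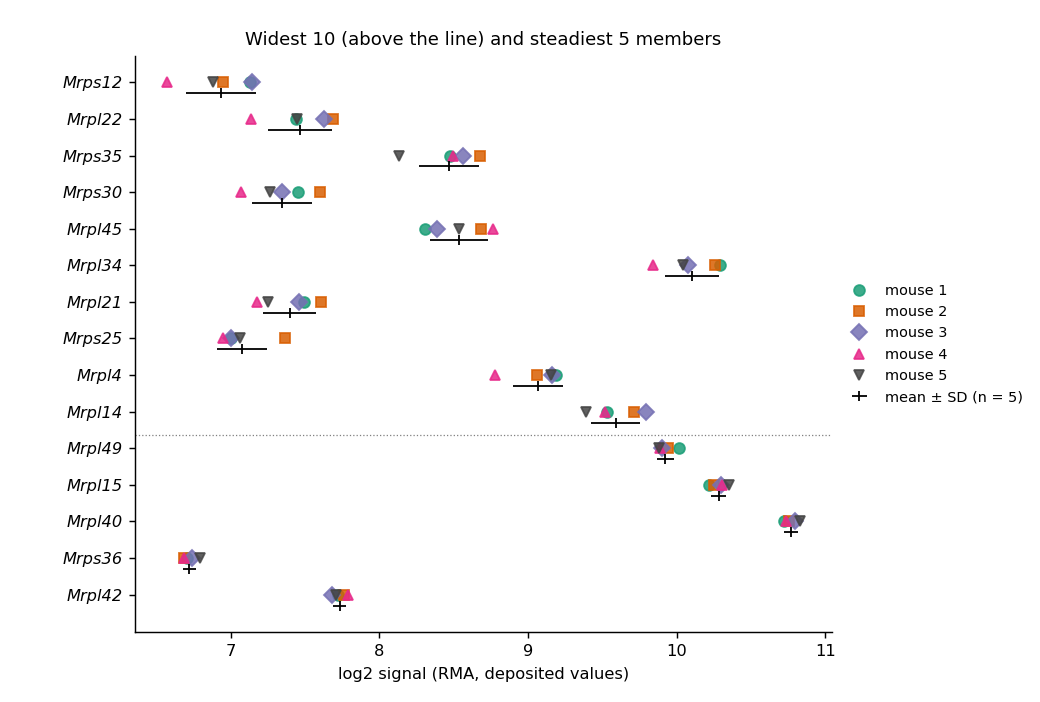
Log2 signal of each mouse for the 10 genes with the largest SD (above the dotted line) and the 5 with the smallest SD (below it), with the mean and SD of the 5 mice drawn under the points. Mouse 4 is the lowest for Mrps12, Mrpl22, Mrps30, Mrpl34, Mrpl21, Mrps25 and Mrpl4, and the points of the lowest 5 genes nearly coincide.

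Genes in which human variants cause mitochondrial disease with combined respiratory chain deficiency, among them MRPS16, MRPS22, MRPS34, MRPS7, MRPL3, MRPL12 and MRPL44, had mouse counterparts on both sides of the family's median SD of 0.111. Mrps7 (uS7m, of the head of the small subunit) had a mean of 9.87 ± 0.059 (SD, n = 5), Mrps16 (bS16m) of 8.50 ± 0.098, Mrps34 (mS34) of 8.16 ± 0.13 and Mrps22 (mS22) of 8.91 ± 0.13. Single mice carried part of the spread, since the SD of Mrps7 was 0.028 without mouse 2 and that of Mrps16 was 0.053 without mouse 3. Mrpl12 (bL12m), of the flexible stalk that recruits translation factors, had 10.15, 10.14, 10.11, 9.92 and 9.91 in mice 1 to 5, so that mice 4 and 5 were lower than the other 3 (SD 0.12). Mrpl11 (uL11m), at the base of the same stalk, had 9.33, 9.40, 9.39, 9.19 and 9.18, with mice 4 and 5 again the lowest. Mrpl3 (uL3m) was 9.10 in mouse 5, with the other mice at 9.28 to 9.41 (SD 0.13, and 0.062 without mouse 5). Mrpl44 (mL44) was 7.20 in mouse 1, with the other mice at 7.34 to 7.50 (SD 0.11, and 0.065 without mouse 1), and Mrpl28 (bL28m) had a mean of 8.84 ± 0.098.

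Mammals have 3 homologs of the bacterial ribosomal protein S18, and they occupy different sites. Mrps18a (mL66) had 9.33, 9.46, 9.35, 9.19 and 9.23 in mice 1 to 5, Mrps18b (mS40) had 10.86, 11.03, 10.69, 10.71 and 11.02, and Mrps18c (bS18m), which takes the bacterial position, had 9.07, 9.33, 9.04, 9.20 and 8.97. All 3 were highest in mouse 2. Mouse 5 was nearly as high as mouse 2 for Mrps18b and was the lowest for Mrps18c.

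The common movement of the family was described by subtracting each gene's own 5-mouse mean and averaging what was left. For the 77 genes this mean deviation came to 0.024, 0.083, 0.0050, -0.076 and -0.037 in mice 1 to 5 on the log2 scale, a span of 1.12-fold between mice 2 and 4, and the medians were 0.026, 0.087, -0.0018, -0.082 and -0.032. In mouse 2, 61 of the 77 genes lay above their own mean, and in mouse 4 15 did. For all 13329 tested genes the mean deviations were 0.032, 0.027, 0.0035, -0.061 and -0.0014, and the medians 0.029, 0.031, 0.0074, -0.063 and -0.0064. For the 2306 genes of the same level the means were 0.048, 0.052, -0.024, -0.077 and 0.0013. The lower values in mouse 4 were thus as large in other genes of that level. The array of mouse 4 also stood apart in its background, since the receptor probe sets deviated by 0.28 on it and by -0.12 to -0.016 on the others, and 75.9% of them were brightest there, and the part of this in the lower values was not tested.

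Mouse 2 had the highest value for 36 of the 77 genes (46.8%), in contrast to 32.2% of the genes of the same level and 25.5% of all tested genes. It had the lowest value for 2, Mrpl27 and Mrpl41, each on the brighter of 2 probe sets. On the dimmer probe set of each, another mouse was the lowest, and which of the probe sets reads the gene was not checked. Among the 69 genes with 1 probe set, mouse 2 had the lowest value for 0. Mouse 4 had the lowest value for 35 of the 77 (45.5%), with 41.2% at the same level and 36.6% of all tested genes. Relative to genes of the same level the family deviated by -0.024, 0.032, 0.029, 0.00056 and -0.038 in mice 1 to 5. With 1 group, no test over samples bears on these deviations.

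**Figure D3:**
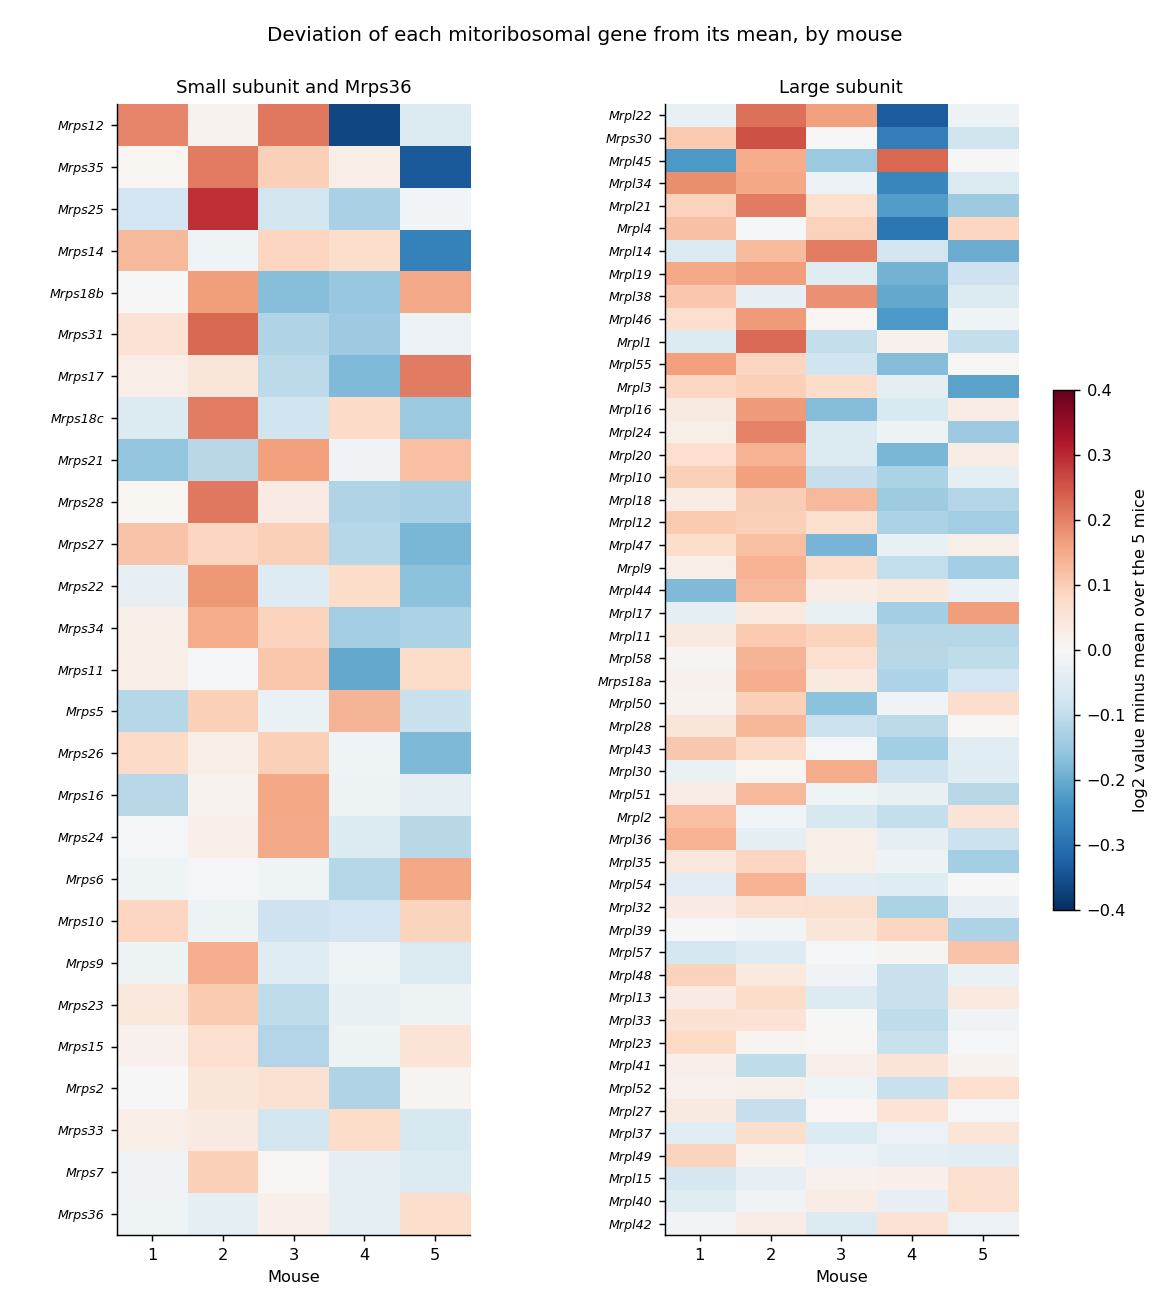
Deviation of each gene (rows, sorted by SD within each panel) from its own mean in mice 1 to 5 (columns), in log2 units, with red above and blue below the mean. Red prevails in mouse 2, where 61 of 77 genes lie above their mean, and blue in mouse 4, where 15 do.

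The deviations of the subunits had the same sign in every mouse, although both lay near 0 in mouse 3. The 26 genes of the small subunit had mean deviations of 0.0091, 0.088, 0.011, -0.062 and -0.046 in mice 1 to 5 and the 50 genes of the large subunit had 0.033, 0.084, 0.0015, -0.085 and -0.034. The difference, small minus large, lay between -0.024 in mouse 1 and 0.023 in mouse 4. Mouse 2 was highest for 12 of 26 small-subunit genes and for 24 of 50 large-subunit genes. Mouse 4 was lowest for 8 of 26 and for 26 of 50, and mouse 5 for 10 of 26 and 11 of 50. The median SD was 0.126 in the small subunit and 0.106 in the large.

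Classes of origin follow the structural names. Mrps18b (0.166 in mouse 2) and Mrps18a (0.145) thus count as mitochondria-specific, although both are homologs of bacterial S18. By origin, the 10 mitochondria-specific genes of the small subunit deviated the most in mouse 2, by 0.15. Of these 10 genes, 7 were highest there, next to 32.2% of the genes at the level of the family and 25.5% of all tested genes. The deviation was 0.050 for the 16 small-subunit genes with a bacterial homolog. In the large subunit the order was the other way, with 0.069 for the 20 mitochondria-specific genes and 0.093 for the 30 with a bacterial homolog. The 20 mitochondria-specific genes of the large subunit were the steadiest of these classes, with a median SD of 0.084, in contrast to 0.12 for the 30 with a bacterial homolog. They include Mrpl42, Mrpl40 and Mrpl49, and also Mrpl41, Mrpl48 and Mrpl51. Whether the probe sets chosen for Mrpl41, Mrpl48 and Mrpl51 read these genes was not checked. The difference between the classes was not tested.

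Where a gene had more than 1 probe set, the probe sets did not always rank the mice alike. This concerned 8 of the 77 genes, and in 6 of them (Mrpl27, Mrpl41, Mrpl47, Mrpl51, Mrps5 and Mrps33) the probe sets differed in both the highest and the lowest mouse. Whether each probe set reads the named gene or a near-identical copy of it elsewhere in the genome was not checked, also for genes with 1 probe set. In most members the probe set numbers of the array ran in blocks by chromosome. The number chosen for Mrpl48 and those of the brighter probe sets of Mrpl27, Mrpl41, Mrpl51 and Mrps33 fell outside the block of the gene's own chromosome. The dimmer probe sets of Mrpl27, Mrpl41, Mrpl51 and Mrps33 had numbers in or near it. Mrpl27 had 9.49, 9.36, 9.46, 9.51 and 9.45 on its brighter probe set, lowest in mouse 2, and 8.30, 8.02, 8.07, 7.96 and 8.21 on the other, lowest in mouse 4. Mrpl51 had 9.99, 10.09, 9.95, 9.93 and 9.85 on the brighter, highest in mouse 2, and 8.17, 8.03, 8.26, 8.32 and 8.12 on the other, where mouse 2 was the lowest. Mrps5 was highest in mouse 4 (9.71) on the brighter and in mouse 1 (9.19) on the other, Mrps33 in mouse 4 (9.46) and in mouse 2 (9.03), and Mrpl41 in mouse 4 (7.54) and in mouse 2 (6.59). Mrpl47, described after its values were seen, had 7.24, 7.29, 6.98, 7.14 and 7.19 on the brighter and 7.23, 7.01, 7.17, 6.50 and 6.94 on the other, where mouse 4 was the lowest and the SD was 0.29 in place of 0.12. Both probe sets of Mrpl23 were highest in mouse 1 and lowest in mouse 4. Among the 69 genes with 1 probe set, the mean deviations were 0.025, 0.091, 0.0092, -0.087 and -0.038 in mice 1 to 5, and 34 were highest in mouse 2.

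In the other lists of mitochondrial gene expression the mean deviation was also highest in mouse 2, and it was lowest in mouse 4 or in mouse 5. Among 17 translation factors and mRNA-handling genes, 11 were highest in mouse 2, and their mean deviations were 0.044, 0.12, -0.0014, -0.069 and -0.092. Mtrf1, a release factor gene (SD 0.22), and Mtif2, the gene of initiation factor 2 (SD 0.17), were the widest. Among 21 mitochondrial aminoacyl-tRNA synthetase and amidotransferase genes, which charge tRNAs, 11 were highest in mouse 2 and 9 lowest in mouse 4, with deviations of 0.0076, 0.11, 0.014, -0.088 and -0.040 and with Aars2 (SD 0.18) and Qrsl1 (SD 0.18) the widest. For 28 genes of mitoribosome assembly and rRNA modification the deviations were 0.019, 0.11, -0.0012, -0.056 and -0.076, with mouse 2 highest for 13. Fastkd2, needed for the mitochondrial large ribosomal RNA, was the widest of these with 7.38, 7.76, 7.11, 7.55 and 7.26 (SD 0.25), followed by Mrm3 (SD 0.21), a methyltransferase of that RNA. The 4 tested mitoribosomal genes with other symbols had 0.055 in mouse 2 and -0.044 in mouse 4, with Chchd1 and Gadd45gip1 (SD 0.11 each) the widest, and 12 genes of mitochondrial DNA replication and transcription had 0.098 and -0.056, and -0.076 in mouse 5, with Tefm and Polg2 (SD 0.17 each) the widest. In each of these lists 0 genes were called by limma at an adjusted p of 0.05, and 0 had an unadjusted p under 0.05.

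Among nuclear regulators of mitochondrial genes, 14 were tested, including Nrf1, Gabpa and Ppargc1a. Their median deviations were 0.071, 0.062, -0.070, -0.063 and -0.035 in mice 1 to 5. The means were 0.075, 0.039, -0.040, -0.10 and 0.028, so that the sign in mouse 5 and the lowest mouse differed between mean and median. Mouse 1 was highest for 6 of them and mouse 2 for 2. Myc, a transcription factor gene of growth, was the widest with 7.91, 7.77, 7.68, 7.14 and 8.81 (SD 0.61, limma adjusted p = 0.0988), followed by Pprc1 (SD 0.21), a coactivator gene related to Ppargc1a. None of the 14 was called by limma, and 1, Myc, had an unadjusted p under 0.05.

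The respiratory chain, whose mitochondrially encoded subunits this ribosome makes, and the cytosolic ribosome were set beside the family. The 72 nuclear respiratory chain genes deviated by 0.016, 0.054, 0.039, -0.028 and -0.080 in mice 1 to 5, with mouse 2 highest for 25 (34.7%) and mouse 5 lowest for 40 (55.6%), and mouse 5 lowest for 21 (27.3%) of the mitoribosomal genes. Their median SD was 0.073, with Ndufb3 (SD 0.21) and Ndufs4 (SD 0.20) the widest. The 59 tested cytosolic ribosomal protein genes deviated by -0.0043, -0.043, 0.064, -0.024 and 0.0065. Mouse 2, the highest for 36 of 77 mitoribosomal genes, was the highest for 2 of these 59 and the lowest for 23. Mouse 3 was the highest for 30 of the 59 and for 12 of the 77. Their median SD was 0.067, with Rpl12 (SD 0.28) and Rpl22 (SD 0.20) the widest, and several have near-identical copies in the genome, so that their probe sets may take signal from more than 1 gene. Both lists had 0 genes called by limma and 1 gene each (Ndufs4 and Rpl12) with an unadjusted p under 0.05.

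**Figure D4:**
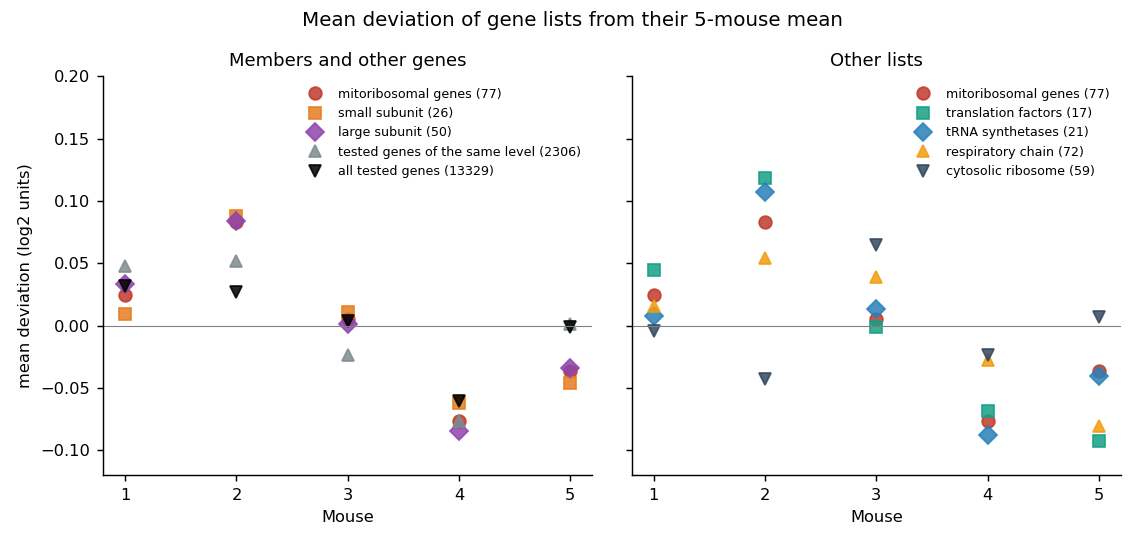
Mean deviation of each gene list from its mean over the 5 mice (vertical axis, log2 units) in each mouse (horizontal axis), with the number of tested genes in parentheses. The mitoribosomal genes (red circles) reach 0.083 in mouse 2 and -0.076 in mouse 4, and the cytosolic ribosome lies at -0.043 in mouse 2 and 0.064 in mouse 3.

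**Figure D5:**
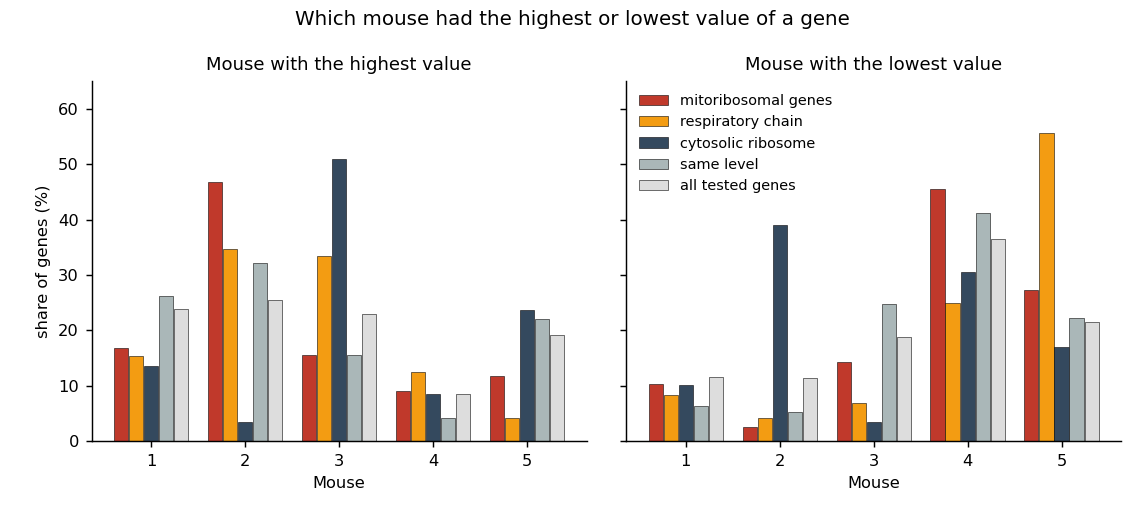
Share of the genes of each list (vertical axis, percent) that had the highest (left) or the lowest value (right) in each mouse. The mitoribosomal genes reach 46.8% for the highest value in mouse 2 and 45.5% for the lowest value in mouse 4, next to 25.5% and 36.6% of all tested genes.

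In bulk tissue, fewer cells of a type and less RNA per cell cannot be told apart. Hepatocyte markers (10 tested) deviated by 0.027, -0.023, -0.019, 0.030 and -0.015 in mice 1 to 5, and mouse 2 was the highest for 0 of them. Kupffer cell and macrophage markers (11 tested) deviated by 0.36, -0.18, -0.058, -0.22 and 0.10, endothelial markers (8) by 0.12, 0.0051, -0.022, -0.091 and -0.014, and stellate cell and fibroblast markers (8) by 0.15, -0.069, 0.011, -0.064 and -0.025. Cholangiocyte markers (4 tested of 5 measured) deviated by 0.14 in mouse 2 and -0.052 in mouse 4, and Krt19 did not exceed the floor on all arrays. Erythroid (2 tested) and skeletal muscle markers (3 tested) were highest in mouse 1, at 0.45 and 0.54, and deviated by -0.13 and -0.27 in mouse 2. Lymphocyte and neutrophil (2 tested of 8 measured) and adipocyte markers (2 tested of 4) deviated by -0.15 and -0.047 in mouse 2. By the limma F test, an unadjusted p under 0.05 was found for 6 of 11 Kupffer cell and macrophage and 3 of 3 skeletal muscle markers. It was also found for 1 of 2 erythroid and 1 of 4 cholangiocyte markers. The count was 0 in each other marker list, and the share over all tested genes was 6.38%. In each marker list 0 genes were called at an adjusted p of 0.05. The part of the cell mix in the deviations of the mitoribosomal genes was not tested.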

How the data were processed

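RNA was measured on Affymetrix whole-transcript arrays, 1 per mouse. The authors deposited log2 values, 1 per probe set and array, made with RMA and Affymetrix Expression Console 1.2 per the submitters' processing notes; the settings and the genome build are not given in the sources used here. RMA shrinks differences near background. Arrays carry no molecule counts, and precision is limited by there being 5 of them. Of 35556 probe sets, 21789 had 1 gene symbol in the platform annotation, 1621 several and 12146 none; 21698 matched the RefSeq gene table of GRCm38.p6 by gene ID. No values were renormalized. Pearson's r between arrays lay between 0.971 and 0.993 across probe sets.

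Tested were 14579 probe sets of 13329 genes with a mean above 5.77, the 95th percentile of the receptor probe sets' means. In R 4.3.3, limma 3.58.1 fitted 1 mean per probe set, and each residual variance (4 degrees of freedom) was set against limma's robust, level-dependent prior (statmod 1.5.0, prior degrees of freedom 6.21) by an upper-tail F test with Benjamini-Hochberg adjustment at 0.05 over all tested probe sets. The test was checked on simulated data. Technical replicates were not measured, so the spread between mice includes technical spread. Lists were described by counts, means and medians in Python 3.11.15, with no test. Alternatives were other normalizations, filters, variance fits, probe set rules and leaving out each mouse.

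Members, lists and subunit classes were chosen with earlier results of these data known. Named are the 10 members with the largest and the 5 with the smallest SD, up to 5, by mean signal, of those whose probe sets disagree on the highest and the lowest mouse, 15 chosen by role and, from each list, the 2 widest. For the marker lists these 2 are left out, and their deviations are given. A comparison of protein sequences was planned and was not made.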

Additional observations from a re-analysis of the deposited data

Results flagged for a closer look

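Of the 32 named genes, 2 had a mouse whose gap to the nearest other value exceeded Dixon's limit of 0.71 of the whole range, which chance alone passes in about 1 in 20 groups. Mouse 2 had 7.367 for Mrps25, with the other mice between 6.945 and 7.063. For Mrpl41 it had 7.388, with the other mice between 7.503 and 7.541, on the brighter of 2 probe sets, and on the dimmer one mouse 2 was the highest. Mrps25 was named for its large SD and Mrpl41 for probe sets that disagree, so the rate of 1 in 20 does not apply to them. The share of all tested genes that pass this limit was not computed. Over all 77 genes 4 passed it, which is near 1 in 20, and each did so in mouse 2. The others, named because they passed, are Mrpl54 (9.742, with 9.555 to 9.60 in the other mice) and Mrps9 (7.781, with 7.580 to 7.619 in the other mice).

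The receptor probe sets that set the brightness floor deviated by 0.2795 in mouse 4 and by -0.12 to -0.016 in the other mice. The gap of mouse 4 to the nearest other mouse was 0.739 of the whole range, above Dixon's limit. The part of these probe sets in the low mitoribosomal values of that mouse was not tested.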

How the results depend on the processing

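No paired analysis was possible because all 5 mice form 1 group. In every setting tried, limma called 0 of the 77 genes; without replicate 5, 1 gene (Mrpl34, limma adjusted p = 0.777) had an unadjusted p under 0.05, and in the other settings 0 had. The lowest limma adjusted p of a member lay between 0.777 and 0.981 over these settings. Over all probe sets limma called 52, and 142 with arrays centred on their medians, 40 without the filter, 37 after quantile normalization, 29 with the stricter filter, 24 without the trend, 18 without the robust step and 0 (864 at an unadjusted p under 0.05) to 69 with a mouse left out, the 0 being without mouse 4. The deviation of the 77 genes in mouse 4 was -0.076, and 0.00056 relative to tested genes of the same level, a setting added after seeing the data. In mouse 2 it was 0.083, and 0.032 relative to the same genes, 0.057 relative to all tested genes, 0.066 after quantile normalization and 0.13 with centred medians, a setting that gave -0.13 in mouse 4. Leaving out 1 mouse gave 0.064 to 0.090 in mouse 2, -0.085 to -0.055 in mouse 4, 0.0053 to 0.045 in mouse 1 and -0.056 to -0.016 in mouse 5; the sign in mouse 3 was not stable (-0.014 to 0.026). Mouse 2 was highest for 32 (quantile normalization) to 45 genes (centred medians), with 36 as deposited. With the 99th percentile as floor, 74 genes exceeded it on all arrays instead of 77.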
